A study of Mus musculus with 8 samples.

Results

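The ionotropic receptors for glutamate, GABA and glycine were taken as all gene symbols of the AMPA (Gria1 to Gria4), kainate (Grik1 to Grik5), NMDA (Grin), delta (Grid), GABA-A and rho (Gabr) and glycine (Glr) subunit families. The rule found 42 of the 19787 measured genes, of which 4 are AMPA, 5 kainate, 7 NMDA, 2 delta, 16 GABA-A, 3 rho and 5 glycine receptor genes. The 8 libraries hold nuclei of wild-type C57BL/6 mice, taken from the spinal cord at the low thoracic level. In experiment 1, each of 2 numbered uninjured cords gave a library of traced nuclei, marked by GFP as neurons projecting to the lumbar cord, and a library of untraced nuclei without GFP. Experiment 2 had 2 libraries after a hemisection of the cord and natural repair, and 1 library of an uninjured cord. Experiment 3 had 1 library of GFP-traced regenerating neurons. The labels used here state no age, tracer or time after injury.

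These receptors are ion channels built from several subunits that open when transmitter binds. Glutamate receptors of the AMPA and kainate families carry fast excitation, NMDA receptors need glutamate together with depolarization, and delta receptors act mainly as synaptic organizers that bind cerebellins. GABA-A and glycine receptors are chloride channels, and in the spinal cord they share the work of inhibition, glycine being most prominent in ventral circuits.

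The annotation calls 4076 nuclei neurons, with 80 and 25 in the traced, 354 and 123 in the untraced, 1000 and 108 in the hemisection, 2148 in the uninjured and 238 in the regenerating libraries. The median UMI count per neuron was 488 in the regenerating library and 5767 to 16489.5 elsewhere. Nuclei whose names hold no barcode sequence number 4727, and they are the 238 regenerating nuclei and 4489 of the uninjured library. The uninjured library also stood apart in the share of mitochondrial UMIs in neurons, 0.464% against 0.0590% to 0.171% elsewhere, and in the summed level of 10 oligodendrocyte markers in neurons, 798 CPM (UMIs of a gene scaled to the same total UMI count in every library) against 78.0 to 267. Of the nuclei with a barcode sequence, 4 sequences occurred in more than 1 library. Nothing in the labels says whether the libraries of 1 group outside experiment 1 are separate animals, so p-values measure the spread between libraries, which may be technical.

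The 42 genes together took 1.57% to 1.92% of the UMIs of neurons in each of the 8 libraries. A total of 34 passed the filter on low counts in neurons. The 8 that did not are Gabre, Gabrd, Gabrp, Gabra6, the rho genes Gabrr1, Gabrr2 and Gabrr3, and Glra4, whose levels in neurons were at most 7.41 CPM, a value that rests on 1 UMI of Glra4 in the regenerating library. A library's 3-count floor, the level that a count of 0 allows, was 0.145 CPM in the uninjured and 22.2 CPM in the regenerating neurons. Levels of different genes were not ranked as a result, because in this nuclear RNA longer genes tended to have more UMIs. Mean CPM was used to choose which genes of a family have values per library, and gene length enters that choice. Across the 34 members, gene span and CPM had a Spearman rho of 0.772, against 0.540 across 11531 genes, as a description, and the median span was 194 kb against 32.2 kb.

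Among the AMPA receptor genes, Gria2 encodes the subunit whose edited form makes the channel impermeable to calcium. Gria2 stood at 1391 and 1056 CPM in traced, 1606 and 1368 in untraced, 1290 and 1404 in hemisection, 1278 in uninjured and 1133 in regenerating neurons. Gria4, which encodes a rapidly gating subunit, stood at 1568 and 1526, 1456 and 1375, 1450 and 1611, 1306 and 1348 CPM in the same order. The uninjured library was the lowest for Gria4, and traced replicate 2 the lowest for Gria2. The kainate receptor gene Grik2 encodes a pore-forming subunit of most kainate receptors. Its levels were 1258 and 1281 CPM in traced, 1739 and 1792 in untraced, 1276 and 2194 in hemisection, 1452 in uninjured and 1400 in regenerating neurons. The Grik1 levels, for a second pore-forming kainate subunit, were 183 and 264, 413 and 434, 402 and 521, 354 and 341 CPM. For both kainate genes the traced libraries lay below the untraced ones, and for Grik1 they lay below every other library.

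NMDA receptors join the obligatory subunit Grin1 with Grin2 or Grin3 subunits. Grin2b, which encodes a subunit with slow closing kinetics, had 756 and 609 CPM in traced, 773 and 765 in untraced, 809 and 803 in hemisection, 817 in uninjured and 593 in regenerating neurons. Grin2a, its counterpart with faster closing, had 573 and 582, 681 and 907, 726 and 657, 763 and 726 CPM. The traced libraries were the lowest for Grin2a. The delta receptor gene Grid1 had 889 and 843, 766 and 798, 934 and 861, 800 and 1355 CPM. The regenerating library had the highest Grid1 level, from 183 UMIs.

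GABA-A receptors are mostly built of alpha, beta and gamma subunits. Gabrg3, a gamma subunit gene, had 936 and 954 CPM in traced, 1144 and 1561 in untraced, 1255 and 1410 in hemisection, 944 in uninjured and 1422 in regenerating neurons. Gabra4 and Gabrb1 overlap on opposite strands of chr5 over 0.195 kb (GRCm38). Gabra5 on chr7 overlaps another GABA-A gene on the opposite strand over most of its 102 kb span. The level of Gabra5 is therefore uncertain unless counting used the strand. Of the rho genes, which encode channels that form on their own, Gabrr2 had 0 and 0 UMIs in traced, 0 and 1 in untraced, 3 and 1 in hemisection, 24 in uninjured and 0 in regenerating neurons. Gabrr3 had 2 and 0, 0 and 0, 3 and 0, 6 and 0 UMIs. At this depth neither rho gene could be compared between groups of neurons. Glra1, the alpha subunit of the adult glycine receptor, had 326 and 483 CPM in traced, 289 and 379 in untraced, 325 and 327 in hemisection, 317 in uninjured and 341 in regenerating neurons. Glrb, whose product anchors the glycine receptor to the gephyrin scaffold, had 244 and 216, 249 and 177, 195 and 163, 242 and 104 CPM.

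The promoters of Grik2 and Grin3b are shown because Grik2 is the only member called higher in oligodendrocytes below and Grin3b the member farthest above its median in 1 subtype. Each is the 250 bases before the RefSeq start of the gene (GRCm38.p6), with CG dinucleotides in capitals. Grik2 lies at chr10:49788755-49789004 on the minus strand and Grin3b at chr10:79970474-79970723 on the plus strand.
Grik2: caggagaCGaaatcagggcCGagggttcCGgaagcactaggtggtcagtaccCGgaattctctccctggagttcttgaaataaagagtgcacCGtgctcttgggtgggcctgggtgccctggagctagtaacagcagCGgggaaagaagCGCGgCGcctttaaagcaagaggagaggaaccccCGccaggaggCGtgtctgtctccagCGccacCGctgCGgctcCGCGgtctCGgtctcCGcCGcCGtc
Grin3b: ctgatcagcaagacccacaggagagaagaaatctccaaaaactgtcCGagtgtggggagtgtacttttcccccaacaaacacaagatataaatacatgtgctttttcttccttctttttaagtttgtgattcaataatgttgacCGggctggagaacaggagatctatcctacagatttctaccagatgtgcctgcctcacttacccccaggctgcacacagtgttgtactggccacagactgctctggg
The Grik2 stretch holds 20 CG dinucleotides, and 17.9% of 32851 promoters of this length hold at least as many. The Grin3b stretch holds 2, and 29.0% hold at most as many. RefSeq promoters matched 29 of the 42 members, with 33 starts, and their median was 8 CG dinucleotides (range 0 to 42) against 6 over all promoters. The letters TATAAA, searched on both strands, occurred in 15.2% of the members' promoters, that of Grin3b among them and that of Grik2 not, and in 12.4% of all. These matches are descriptions of letters in the window.

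The annotation's subtype names carry E or I as their second letter, read here as excitatory and inhibitory. All 15 subtypes with E had more UMIs of Slc17a6, the vesicular glutamate transporter, than of Gad1, which makes GABA, and 0 of the 11 with I did. Levels were compared in 5 libraries, the untraced, hemisection and uninjured ones, each with at least 20 nuclei of both classes. The regenerating library also met this minimum (182 excitatory and 54 inhibitory nuclei) but was left out. In the 5 libraries, 15 of the 34 members had levels in excitatory and inhibitory neurons that did not overlap, against 7.52% of 11601 genes. Of these members, 10 were higher in excitatory and 5 in inhibitory neurons, against 3.97% and 3.55% of all genes. In the regenerating library, the inhibitory level of Gria3 (319 CPM) and the excitatory levels of Grin2b (694 CPM) and Gabrq (0 CPM) lay inside the other class's range. The authors' clusters were made from the same nuclei, so these differences are a description with no test.

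The genes higher in inhibitory neurons were 3 kainate and 2 AMPA receptor genes. Grik3, a kainate subunit gene, had 17.6, 5.82, 37.1, 23.2 and 38.1 CPM in excitatory neurons of untraced replicates 1 and 2, hemisection replicates 1 and 2 and the uninjured library. In inhibitory neurons Grik3 had 137, 306, 211, 176 and 171 CPM. Its mean was 24.4 ± 13.6 against 200 ± 64.7 CPM (SD, n = 5), 8.22-fold higher in inhibitory neurons. Grik2 had 1027, 692, 811, 837 and 875 CPM in excitatory and 2794, 3307, 2075, 4042 and 2171 in inhibitory neurons. That was 3.39-fold higher in inhibitory neurons (mean 2878 ± 820 against 848 ± 121 CPM). Grik1 was 1.43-fold higher (517 ± 95.7 against 361 ± 42.0 CPM). Gria3 had 368, 219, 386, 458 and 370 CPM in excitatory and 683, 567, 609, 704 and 594 in inhibitory neurons. The ratio was 1.75 for Gria3 and 1.66 for Gria4 (1877 ± 245 against 1129 ± 115 CPM).

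The genes higher in excitatory neurons came from all 6 tested families. Gria2 had 2032, 1753, 1546, 1838 and 1608 CPM in excitatory and 1042, 849, 877, 813 and 912 in inhibitory neurons, a ratio of 1.95. Among the AMPA genes, excitatory neurons thus had more Gria2 and less Gria3 and Gria4 than inhibitory ones. Grin3a, which encodes an NMDA subunit that lowers calcium entry, had 610, 665, 612, 660 and 587 CPM against 202, 213, 242, 201 and 201 CPM, a ratio of 2.96. Grid1 had 991, 1105, 1202, 1155 and 1034 against 408, 378, 490, 461 and 483 CPM, a ratio of 2.47. As with the genes higher in inhibitory neurons, these genes were chosen for having no overlap between the classes. Ratios were 2.14 for Gabra5, 1.99 for the glycine receptor gene Glra3, 1.72 for Gabra2, 1.43 for the high-affinity kainate subunit gene Grik5 and 1.17 for Grin2b. Gabrq had a mean of 8.14 against 1.35 CPM, both from few UMIs.

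**Figure D1:**
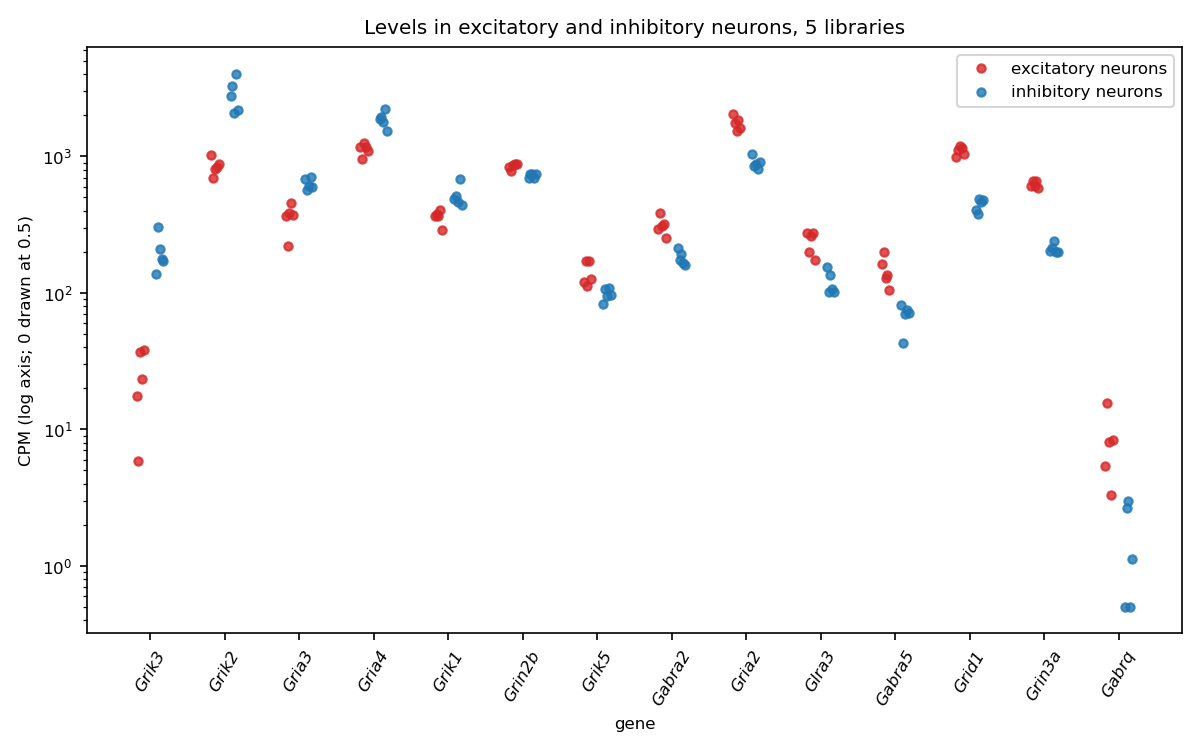
Plotted are 14 of the 15 receptor genes without overlap between excitatory (red) and inhibitory (blue) neurons, in CPM on a log axis with 1 point per library in 5 libraries; values of 0 are drawn at 0.5. Grik3 at the left had at most 38.1 CPM in excitatory and at least 137 CPM in inhibitory neurons, and Grin3a towards the right had at least 587 against at most 242 CPM.

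Within the neurons, 24 subtypes had at least 20 nuclei in the uninjured library, 15 in hemisection replicate 1 and 7 in untraced replicate 1. In the uninjured library 9 of the 34 members had a subtype over 5-fold above their median subtype, and in hemisection replicate 1 there were 7. The share over all genes was not computed, so these counts do not set the receptors apart from other genes. A member with a median of 0 has no ratio and is not counted. Some of the 9 rest on low medians, 1.14 CPM for Gabrq, 2.32 for Grin3b and 3.77 for Grin2c. Subtype levels are those of single libraries, with the exact Poisson interval of the counts. The subtypes were clustered on these nuclei, so their levels are given with no test.

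The AMPA genes differed in which subtypes were highest. DE_Nts had 3707 CPM of Gria2 (95% interval 3558 to 3861) with 60.6 of Gria3 and 250 of Gria4, the lowest of all 24 subtypes for both. MN, whose name reads as motor neurons and which had 104 UMIs of Chat, 102 of Slc5a7, 17 of Isl1 and 6 of Mnx1, had 522 CPM of Gria2, 1046 of Gria3 and 147 of Gria1. The Gria1 maximum was 1553 CPM in DE_Cck_Cpne4, next to 1550 in DI_Pdyn_Gal and 1513 in DI_Npy. In hemisection replicate 1, DE_Nts again had the highest Gria2 level, 4690 CPM, and DE_Cck_Cpne4 the highest Gria1 level, 1906 CPM.

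Each kainate gene had a maximum of its own. Grik1 reached 1336 CPM in DI_Pdyn_Gal, 1145 in DE_Sox5_Qrfpr and 868 in DE_Rreb1_Zim1, against a median over subtypes of 120 CPM and 15.99 CPM in DE_Tac2_Nmu. Grik2 reached 3994 CPM in DI_Nxph1_Npy and had 131 CPM in DE_Nts. The top level of Grik3 was 643 CPM in DI_Npy (interval 563 to 730), while DE_Rreb1_Zim1 had 0 UMIs in 28 nuclei, which allows at most 13.2 CPM by the interval. Grik4, a high-affinity subunit gene, was highest in MN at 471 CPM and lowest in DE_Nts at 19.1 CPM. Grik5, by contrast, spanned only 72.6 to 190 CPM. DE_Nts was thus the lowest subtype for Grik2 and Grik4 as well as for Gria3 and Gria4.

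Grin1 spanned 325 to 747 CPM over the 24 subtypes. Grin2a reached 2036 CPM in DE_Cck_Cpne4 and had 4 UMIs, 20.01 CPM (interval 5.45 to 51.2), in DE_Reln_Trhr, where Grin2b reached its maximum of 1410 CPM. Grin3a was highest in DE_Reln_Nmur2 at 1341 CPM, DE_Reln_Trhr at 1025 and DE_Sox5_Qrfpr at 998 CPM, and its lowest level was 116 CPM in DI_Pdyn_Gal. Grin3b, the other Grin3 gene, had 104 CPM in MN (interval 76.7 to 139, 47 UMIs, at most 6 from 1 nucleus) against a median of 2.32 and 18.6 CPM in VIP_V1_Foxp2, the next subtype. MN did not reach 20 nuclei in another library, so the Grin3b level there rests on the uninjured library. The delta gene Grid1 reached 2483 CPM in DE_Tac2_Nmu and was lowest in DE_Cck_Cpne4 at 128 CPM.

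Among the GABA-A genes, Gabrg3 had 3680 CPM in DE_Reln_Nmur2 and 3162 in DE_Tac2_Nmu against 181 CPM in DE_Sox5_Qrfpr. The same pair led in hemisection replicate 1, with 4500 and 3187 CPM. Gabrg1 reached 126 CPM in DE_Rreb1_Zim1 and 105 in DE_Reln_Nmur2. The alpha subunit genes Gabra2 to Gabra5 differed in their top subtype. Gabra2 was highest in DE_Reln_Nmur2 at 484 CPM, Gabra3 in DE_Reln_Trhr at 550, Gabra4 in DE_Maf_Cpne4 at 141 and Gabra5 in DE_Cck_Cpne4 at 313 CPM. Gabra4 had 0 UMIs in MN, which by its interval allows up to 8.19 CPM. Gabrq, which encodes the theta subunit, had 40.01 and 33.9 CPM in DE_Reln_Trhr and DE_Reln_Nmur2 and a median of 1.14 CPM.

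For the glycine receptor, Glra1 reached 612 CPM in DE_Maf_Cpne4, 523 in DI_Rorb and 469 in MN, against 45.0 in DE_Reln_Trhr and 85.7 in DE_Tac2_Nmu. Glra3 had its maximum of 405 CPM in DE_Nts and its minimum of 9.48 CPM (4 UMIs) in VIP_V1_Mafa. Glra2, known as the fetal alpha subunit, had 116 CPM in VIL_V0d_Bhlhe22 against a median of 39.4, and 1 UMI in DE_Nts. Glrb spanned 114 to 342 CPM.

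**Figure D2:**
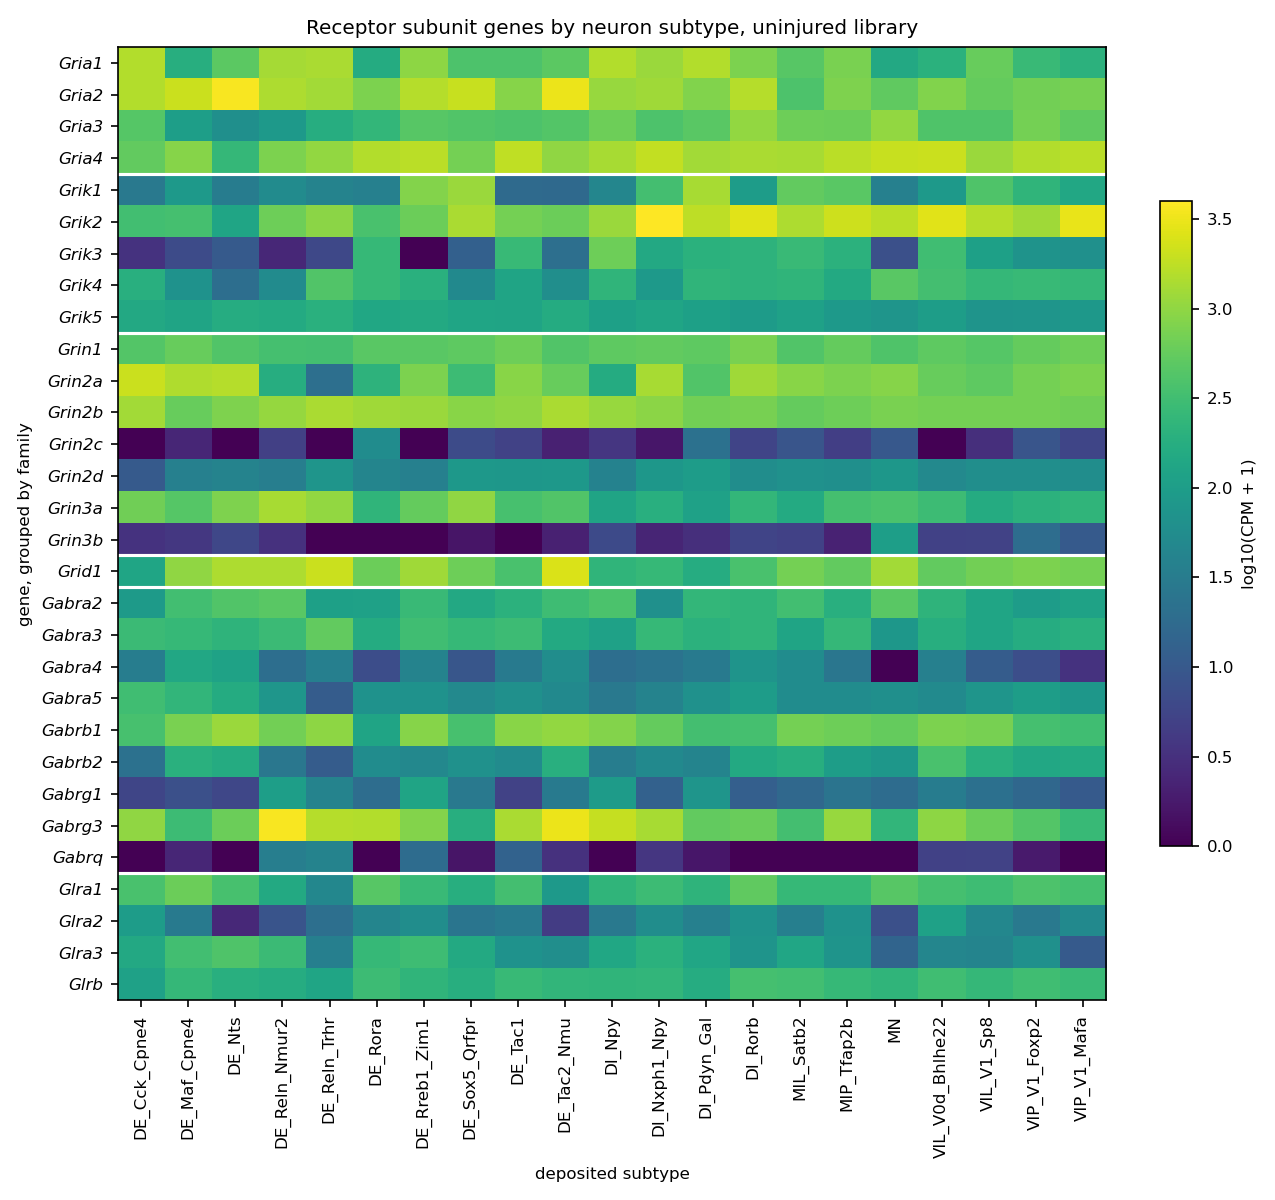
Levels of 30 tested receptor genes (rows, grouped by family with white lines) in 21 neuron subtypes of the uninjured library (columns), as log10(CPM + 1). Grin1 varies little across columns, from 325 to 747 CPM, while Grin3b has a single bright square in MN at 104 CPM.

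The order of subtypes was much alike between libraries. Over the 15 subtypes measured in both, the Spearman rho of a member between the uninjured library and hemisection replicate 1 had a median of 0.861 over the 34 members and ranged from 0.240 for Grin3b to 0.954 for Grid1. Between the uninjured library and untraced replicate 1 the median rho was 0.875 over 7 subtypes. These are descriptions, since the points share a library and an annotation.

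Members were also compared in pairs across subtypes. Gria2 and Grik5 had a Spearman rho of 0.672 over 24 subtypes of the uninjured library and 0.693 over 15 of hemisection replicate 1. The medians over 561 pairs were 0.0270 and -0.01. By rho this pair ranked 2 and 10 among the 561, so it is one of the most alike and not a typical pair. The 13 pairs of GABA-A genes that lie together on a chromosome had a median rho of 0.364 and 0.182 in these libraries, with 0.421 and 0.732 for Gabra2 and Gabrb1 on chr5 and -0.34 and -0.38 for Gabrg3 and Gabra5 on chr7. The most opposed pair in the uninjured library was Grin3a and Grik3, at -0.71 and -0.78. All values are over subtypes of 1 library each.

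The comparison of traced with untraced neurons asks how lumbar-projecting neurons differ from other nuclei of the region. Over all neurons 0 of the 34 members were called, against a background of 0.362% of 11601 genes called. At an unadjusted p under 0.05 there were 13 members, against 8.02% of all genes, and DESeq2 called 1. The smallest adjusted p belonged to Grik1, whose 183 and 264 CPM in traced neurons lay below 413 and 434 CPM in untraced neurons. The Grik1 log2 difference was -1.04 (SE 0.218, 95% interval -1.502 to -0.574, adjusted p = 0.0563). With the animal as a block, Grik1 (-1.03, adjusted p = 0.0130) and Glra2 (1.11, adjusted p = 0.0202) were called, and DESeq2 called Grik1 (adjusted p = 0.0203). Over all 11601 genes, the fit with the block called 141 and DESeq2 46. Grik1 was also called without traced replicate 2 (-1.24, adjusted p = 0.0468) or untraced replicate 1 (-1.13, adjusted p = 0.0435), and Glra3 without traced replicate 1 (-2.12, adjusted p = 0.0394). Glra2 had 104 and 54.0 CPM in traced against 46.7 and 25.7 in untraced neurons, where traced replicate 2 lay close to untraced replicate 1 (log2 difference 1.11, adjusted p = 0.171 without the block). Grin3a had 293 and 273 against 440 and 473 CPM (-0.74, adjusted p = 0.110). The kainate family had a median difference of -0.55 and the AMPA family of -0.14, against -0.0044 over all genes.

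The mixture of subtypes differed between these fractions. The Grik1-rich DE_Sox5_Qrfpr made up 1.25% and 0% of the traced neurons against 12.1% and 8.13% of the untraced. Inhibitory neurons were 13.8% and 32% of the traced against 33.6% and 35.0% of the untraced. Among excitatory neurons the mixture differed too. DE_Sox5_Qrfpr was 1 of 69 and 0 of 15 excitatory nuclei in the traced libraries, against 43 of 227 and 10 of 78 in the untraced. The part of the mixture in the differences was not tested, either in the fit of all neurons or in that of excitatory neurons below.

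Within excitatory neurons, only traced replicate 1 had at least 20 nuclei (69), so the traced group is 1 library there. Of 35 members tested, 3 were called, against 0.914% of 11821 genes (0.364% higher and 0.55% lower). Grik3 rose, with 80.5 CPM in the traced library against 17.6 and 5.82 CPM in the untraced (log2 difference 2.46, SE 0.405, adjusted p = 0.00290). The 15 excitatory nuclei of traced replicate 2 gave 78.6 CPM. Glra2 rose, at 105 against 42.1 and 17.4 CPM (1.60, SE 0.345, adjusted p = 0.0222), while traced replicate 2 had 49.1 CPM. Grik1 fell, at 151 against 365 and 380 CPM (-1.35, SE 0.272, adjusted p = 0.0128), and traced replicate 2 had 177 CPM. With the 15 nuclei included, Grik1, Grik3, Grin3a (-1.13, adjusted p = 0.0168) and Grik4 (1.06, adjusted p = 0.0365) were called and Glra2 was not. Without untraced replicate 2, 5 were called, Grin3a and Grik4 beside the same 3. That fit had 1 library on each side. With the 15 nuclei included and the animal as a block, 6 members were called. These were Grik1, Grik3, Grin3a and Grik4 with Glra2 and Gabra5 (-0.94, adjusted p = 0.0465). Over all 10862 genes, the fit with the 15 nuclei called 119, and 224 with the block as well. Inhibitory neurons numbered 11 and 8 in the traced libraries and were not tested.

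Excitatory neurons of the other uninjured and hemisected libraries lay between these levels for Grik3, at 37.1, 23.2 and 38.1 CPM.

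The comparison of hemisected with uninjured cords asks how the neurons differ after natural repair. In all neurons 0 of 34 members were called, against a background of 5.56% of 11601 genes. At an unadjusted p under 0.05 there were 2 members, against 19.1% of all genes, and DESeq2 called 0. These were Gabrg3 (log2 difference 0.61, adjusted p = 0.214) and Gabrb1 (0.50, adjusted p = 0.242). The members' median difference was 0.20 against 0.03 over all genes, with 26 positive and 8 negative. The 95% interval lay within 1 log2 unit of 0 for 24 of the 34. For Gria2 the difference was 0.19, and a change of 2-fold lay outside its interval. For the rest the intervals reached beyond a 2-fold change, among them Grin3b and Grin2c, with few UMIs. Members with more UMIs were among the rest too, such as Glra3 (-0.117 to 1.52), Gabrg3 (0.0576 to 1.17) and Grik1 (-0.0325 to 1.02). In excitatory neurons 0 of 35 (background 4.26%) and in inhibitory neurons 0 of 31 members (background 4.6%) were called, with 3 and 1 at an unadjusted p under 0.05, against 15.9% and 17% of all genes. The difference of the hemisection effect between both classes was called in 0 of 33 (background 0.0844%), with 0 at an unadjusted p under 0.05. DE_Reln_Nmur2 was the only subtype with at least 20 nuclei in each library of experiment 2, and there 0 of 27 were called (background 1.69%), with 0 at an unadjusted p under 0.05. DESeq2 was run for all neurons only.

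A fit of the 3 libraries of experiment 2 alone called 3 members higher, Glra3 (0.70, adjusted p = 0.00227), Gabrg3 (0.61, adjusted p = 0.0314) and Gabra4 (0.64, adjusted p = 0.0462). That fit tested 38 members and called 2413 of 14521 genes, so the count of members does not stand out from all genes. Glra3 had 212 and 205 CPM in hemisection and 138 CPM in uninjured neurons, but 222 and 158 CPM in the untraced libraries. Gabrg3 had 1255 and 1410 against 944 CPM, with 1144 and 1561 CPM in the untraced libraries. With the untraced libraries as the uninjured reference, 0 members were called, and 22 of 11601 genes.

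**Figure D3:**
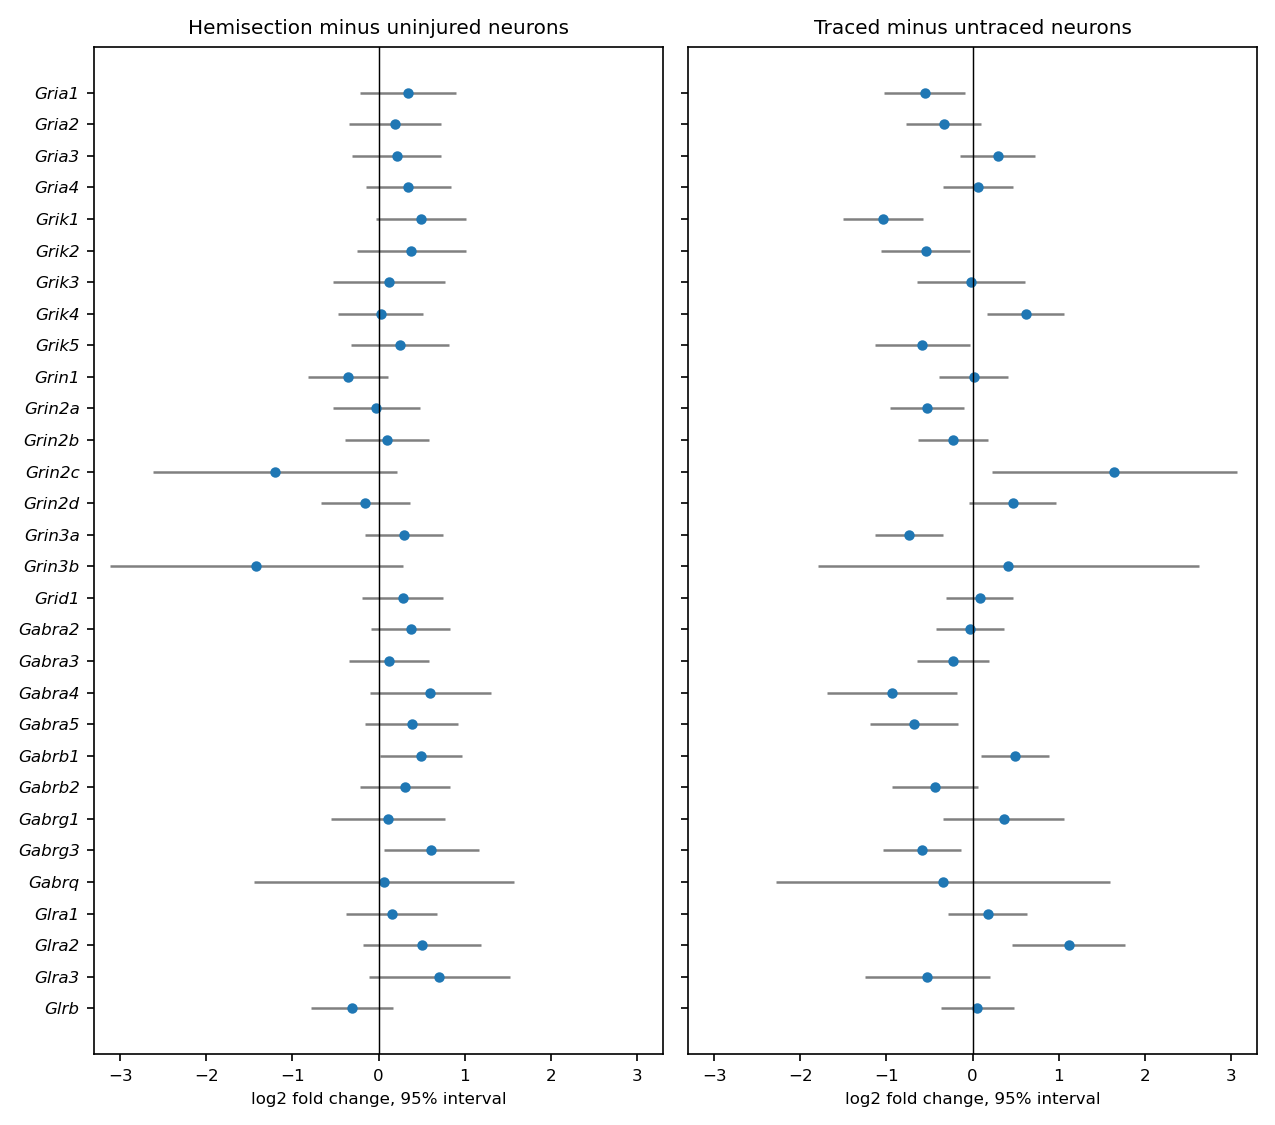
Log2 differences of 30 tested receptor genes in neurons with 95% intervals (grey lines), hemisection minus uninjured at the left and traced minus untraced at the right. At the left 21 intervals lie within 1 log2 unit of 0, and at the right Grik1 at -1.04 and Glra2 at 1.11 lie farthest from 0 apart from Grin2c at 1.65, whose interval is wide.

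Genes around the receptors were taken from lists of auxiliary and scaffold proteins. In hemisection neurons, 2 of 21 auxiliary proteins fell, Olfm1, an AMPA receptor partner (-0.87, adjusted p = 0.0366), and the pentraxin Nptx1, which clusters AMPA receptors (-1.04, adjusted p = 0.0404). Among 9 inhibitory scaffold genes, Clptm1, which limits GABA-A receptor transport, fell (-0.90, adjusted p = 0.0425). Over all genes 5.56% were called in this fit. The lists' medians were 0.12 and 0.03 against 0.03 over all genes. The other lists had 0 called, with medians of 0.36 over 20 excitatory scaffold genes, -0.20 over 3 delta receptor ligands, -0.45 over 2 chloride transporters and 0.13 over 8 metabotropic receptors. The smallest p in these lists belonged to Dlg1 (0.59) and Homer1 (0.55), Cbln1 (-0.77) and Cbln2 (-0.20), Slc12a5 (-0.70) and Slc12a2 (-0.21), and Gabbr1 (-0.69), with adjusted p from 0.0532 for Slc12a5 to 0.823 for Cbln2. In inhibitory neurons 3 of 19 auxiliary proteins fell, Olfm1 (-1.12, adjusted p = 0.0299), Nptx1 (-1.41, adjusted p = 0.0246) and the pentraxin receptor Nptxr (-1.56, adjusted p = 0.0440), against 4.6% of all genes called. In the same neurons Slc12a5, the chloride exporter that sets the direction of GABA and glycine currents, fell (-0.93, adjusted p = 0.0238), as did Gabbr1, a subunit of the metabotropic GABA-B receptor (-0.94, adjusted p = 0.0252). In excitatory neurons Slc12a5 had -0.58 (adjusted p = 0.218), and the difference between the classes was 0.32 (adjusted p = 1). In the same fit of all neurons, 10 of 10 oligodendrocyte markers fell (median -2.997), with the high level in the uninjured library. That library was the only reference for these lists, and its part in the falls was not tested. With the untraced libraries as reference, 22 of 11601 genes were called in all neurons, against the 5.56% given above. In the traced comparison of all neurons 0 genes of these lists were called. The pair with the smallest p in each list was Shisa6 (0.61) and Neto1 (-0.66), Camk2a (-1.13) and Dlgap1 (-0.58), Mdga1 (1.67) and Gphn (-0.40), Cbln2 (-0.77) and Cbln4 (0.71), Slc12a5 (-0.18) and Slc12a2 (-0.16), and Grm5 (-0.71) and Grm7 (-0.60). Camk2a, a kinase of synaptic plasticity, came nearest to the threshold (adjusted p = 0.0661). In the regenerating comparison 0 were called as well, the smallest p of the lists belonging to Cacng2 (adjusted p = 0.113) and Neto2, Camk2a and Dlgap2, Nlgn2 and Slitrk3, Cbln4 and Cbln1, Slc12a5 and Slc12a2, and Gabbr2 and Grm7.

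Regenerating traced neurons were compared with the uninjured traced neurons, which are also the traced group above. Of 34 members 0 were called, against 0.276% of 11601 genes, with 6 at an unadjusted p under 0.05, against 14.7% of all genes, and 0 called by DESeq2. The 135012 UMIs of the regenerating neurons limit this comparison. Grik3 had 259 CPM in the regenerating library from 35 UMIs, against 101.25 and 93.0 CPM in the traced libraries (log2 difference 1.37, adjusted p = 0.200). Gria3 had 274 against 491 and 636 CPM (-1.04, adjusted p = 0.195), and Glrb had 104 against 244 and 216 CPM (-1.19, adjusted p = 0.212). Glra2 had 2 UMIs, or 14.8 CPM, against 104 and 54.0 CPM (adjusted p = 0.228). The median of all genes was itself displaced, at -0.28, and the members' median was -0.11. In regenerating excitatory neurons Grik3 had 51.8 CPM, below the 80.5 and 78.6 CPM of the traced libraries. In inhibitory neurons it had 797 CPM, above the traced 224 and 152 CPM, which come from 11 and 8 nuclei. Both regenerating values rest on the 35 Grik3 UMIs of that library. A total of 6 members seen in traced neurons had 0 UMIs, each with a level under the floor of 22.2 CPM over both traced libraries together, so a lower level was not detectable at this depth.

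Several members were also measured in glial classes. Astrocytes, with 103 and 594 nuclei in untraced replicate 1 and the uninjured library, had 2841 and 2366 CPM of Gabrb1, 1203 and 1067 of Gabra2, 216 and 180 of Gabrg1 and 75.9 and 57.8 of Grin2c. Neurons of the same libraries had 662 and 584 CPM of Gabrb1 and 5.13 and 6.61 of Grin2c. Oligodendrocyte precursors had 3506, 2595, 2859 and 2681 CPM of Gria4 in untraced replicates 1 and 2, hemisection replicate 2 and the uninjured library, and 758, 851, 638 and 626 CPM of Grin3a. Gabrr2, near 0 in neurons, had 34.5, 39.1, 24.1, 25.2 and 35.6 CPM in oligodendrocytes of the untraced, hemisection and uninjured libraries. The uninjured oligodendrocytes gave 407 Gabrr2 UMIs from 320 of 3164 nuclei, at most 4 from 1 nucleus. Precursors, astrocytes and microglia of the same library had 2.23, 6.65 and 3.92 CPM.

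In oligodendrocytes, Grik2 was higher after hemisection. Its levels were 3017 CPM (interval 2759 to 3293) and 3569 (3480 to 3658) in hemisection replicates 1 and 2, against 937 (920 to 955) in the uninjured and 1146 and 1372 CPM in the untraced libraries. Hemisection libraries lay above all others with no overlap. The log2 difference from the uninjured library was 1.89 (SE 0.208, 95% interval 1.45 to 2.33, adjusted p = 1.19e-05), and from the untraced libraries 1.25 (adjusted p = 6.76e-05). Grik2 UMIs were found in 58 of 62 and 712 of 765 oligodendrocytes after hemisection, with at most 32 and 66 from 1 nucleus. The median UMI count per oligodendrocyte was 2503 and 1989 after hemisection, 3346.5 in the uninjured and 3205 and 2044 in the untraced libraries. The summed level of 10 oligodendrocyte markers was 15976 and 16259 CPM after hemisection against 17400 to 21277 CPM elsewhere. The summed level of 7 microglia markers in oligodendrocytes was 54.2 and 201 CPM after hemisection, 71.4 in the uninjured and 25.9 and 73.3 in the untraced libraries, and 1 of 6 tested, C1qa, rose (3.65, adjusted p = 0.00193). P2ry12, Tmem119 and Ptprc were at 0 in hemisection replicate 1. Microglia of the hemisection libraries had 84.5 and 125 CPM of Grik2, below the level in oligodendrocytes. Precursors had 1439 CPM of Grik2 in hemisection replicate 2 against 1248 to 1340 CPM in the other libraries, with intervals that overlap. In the fit of all neurons the Grik2 difference was 0.38. A separate fit of both classes together, added after the data were seen, gave a difference of 1.43 between the effects in oligodendrocytes and neurons (SE 0.460, adjusted p = 0.0263). This fit called 21 of 37 members, against a background of 8.75% of 13639 genes (2.16% higher and 6.58% lower), and Grik2 was the only one higher; 0 were called without hemisection replicate 2. Grik2 was not called without hemisection replicate 1 (1.38, adjusted p = 0.0852) or 2 (1.62, adjusted p = 0.105).

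Other members fell in hemisected glia against the uninjured library. In oligodendrocytes 12 of the 32 tested fell and Grik2 alone rose, together 13 against a background of 7.61% of 11924 genes (2.83% higher and 4.77% lower). Gria2 was at 60.2 and 13.7 CPM after hemisection against 183 CPM uninjured (-3.03, adjusted p = 0.000864), and Grin1 at 18.1 and 5.16 against 58.7 CPM. The untraced libraries had 19.6 and 37.5 CPM of Gria2 and 10.8 and 12.2 CPM of Grin1, at the level of the hemisected ones. In microglia 21 of 22 tested members fell, against a background of 20.4% of 8283 genes (13% lower), and Gria2 was at 48.3 and 15.2 against 290 CPM, with 21.0 and 40.8 CPM in the untraced libraries. The summed level of 5 neuron markers, each detected, was 1903 CPM in oligodendrocytes and 2801 CPM in microglia of the uninjured library, against 168 to 428 and 115 to 350 CPM elsewhere. With the untraced libraries as reference, 0 of these 12 members were called in oligodendrocytes and 1 of the 21, Gria4, in microglia. Over all genes, these fits called 359 of 11924 in oligodendrocytes and 636 of 8283 in microglia. Without hemisection replicate 2, 1 member (Grik2) was called in oligodendrocytes and 4 in microglia. The part of neuronal RNA in these falls was not tested.

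**Figure D4:**
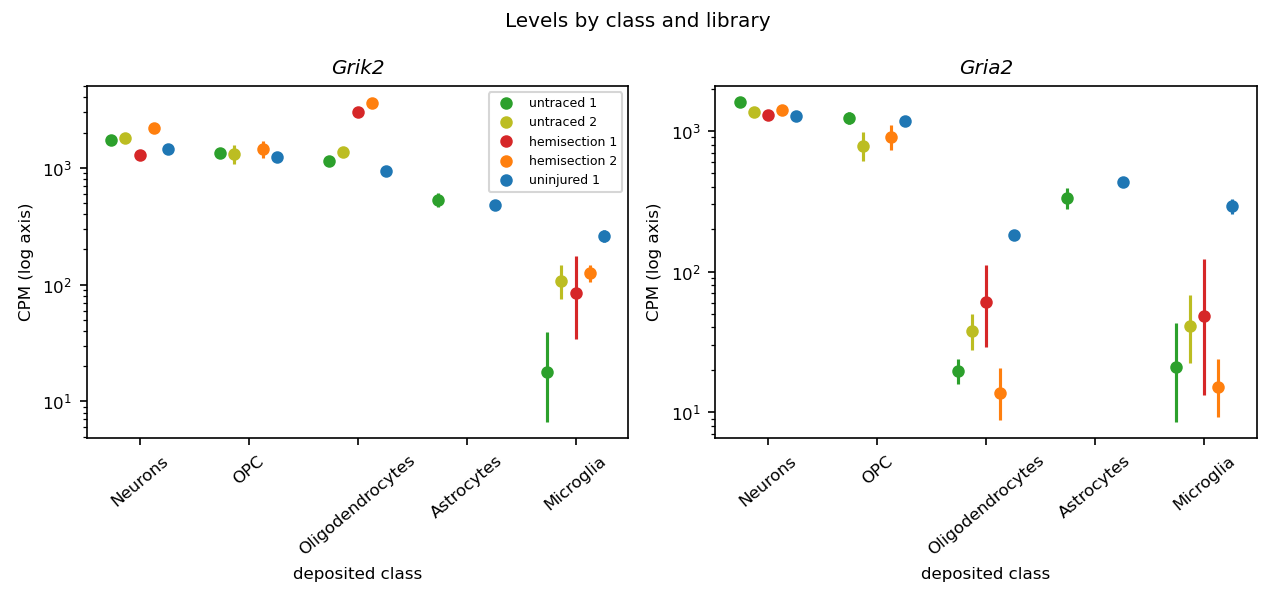
Levels of Grik2 (left) and Gria2 (right) by deposited class in 5 libraries, in CPM on a log axis, with exact Poisson 95% intervals as bars where a glial class is shown. In oligodendrocytes the hemisection libraries stand highest for Grik2 at 3017 and 3569 CPM, while for Gria2 the uninjured library stands highest in oligodendrocytes at 183 and in microglia at 290 CPM.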

How the data were processed

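The deposited file holds UMI counts, with no normalization by the authors, for 19787 genes and 12447 nuclei, and a deposited annotation gives each nucleus its library, class and neuron subtype. The tools named in the submitters' processing notes are Cell Ranger 4.0.0 and Seurat 3, and the builds are mm10 and GRCm38. Settings for nucleus filters, doublets, clustering and strand were not given in the sources used here, and no further filter and no doublet caller was applied. The members and all lists were chosen with earlier results of these data known, and the named genes are all members, with values per library for called members and for the pair with the most mean CPM in each family over the 7 libraries other than the regenerating one. From lists without a called gene the pair with the smallest p is named.

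Counts were summed per library over neurons, over excitatory or inhibitory neurons, or over a class or subtype with at least 20 nuclei. CPM are these sums scaled to the same total UMI count of the same nuclei. The sums were tested with edgeR 4.0.16 in R 4.3.3 (TMM, filterByExpr by group with a minimum count of 10, glmQLFit, glmQLFTest), with every library of the kind in 1 fit and 1 coefficient per group, so groups with 1 library are assumed to vary like the others. Adjusted p-values are Benjamini-Hochberg values over all tested genes, called under 0.05, and no p is adjusted over the members alone. DESeq2 1.42.0 and other settings served as alternatives. The fits were tested on simulated data. Intervals of single libraries are exact Poisson intervals at 95% and cover counting error only. The titles give the traced and untraced libraries of experiment 1 shared animal numbers, so the numbers pair them, and over 7034 genes the difference between replicates correlated between both fractions (r = 0.198). Some member genes and subtypes are counted among the totals but not reported here by name.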

Additional observations from a re-analysis of the deposited data

Results flagged for a closer look

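The hemisection effect on Grik2 differed between oligodendrocytes and neurons. The difference of the log2 effects was 1.43 (SE 0.460, 95% interval 0.52 to 2.33, edgeR adjusted p = 0.0263) in a fit of both classes together. In the separate fits the effect was 1.89 in oligodendrocytes and 0.38 in neurons. Oligodendrocytes had more Grik2 in both hemisection libraries than in any uninjured or untraced one. With RLE scaling the difference was 1.56 (adjusted p = 0.0105). It missed the threshold without hemisection replicate 1 (1.38, adjusted p = 0.0852) and without replicate 2 (1.62, adjusted p = 0.105). The comparison was added after the data were seen.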

How the results depend on the processing

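In all neurons, the count of members called for traced against untraced libraries moved from 0 to 3 with no filter on low counts, 1 with DESeq2 and 2 with the replicate block, and lay between 0 and 1 on leaving out each library. For hemisection it moved from 0 to 3 with the libraries of experiment 2 alone, a fit that called 2413 of 14521 genes. For the regenerating library it moved from 0 to 1 with no filter. Traced against untraced excitatory neurons had 3 called, 3 to 5 on leaving out each untraced library, and 6 with the replicate block and the 15 nuclei of traced replicate 2 included. The block was run for these traced comparisons only, and leaving out the only traced library there was not possible. In microglia the 21 called became 1 with the untraced libraries as reference and 4 to 20 on leaving out each hemisection library. In oligodendrocytes the 13 called became 1 and 1 to 9. The difference between oligodendrocytes and neurons had 21 called and 0 to 21. Against the untraced reference, the direction reversed in microglia for Gabrb1 (0.57), Grin2b (0.66), Grik2 (0.82) and Grik1 (0.25), and in oligodendrocytes for Gria3 (0.60), Grin2b (0.17) and Gria1 (0.22). The cause was not tested. Alternatives with the untraced reference in glia, the added 15 nuclei and the glial fits were chosen after seeing the data. Depth limits the regenerating library most, where 3 counts equal 22.2 CPM.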
